A study of Citrus x clementina and Citrus japonica with 6 samples.

Results

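The proteasome is described here through the gene models whose first KEGG orthology name contains the word proteasome, which were 111 of the 30139 gene models in the table. These models carried 43 KEGG names. Of these names, 32 are structural subunits of the particle, with 61 models, and the other 11 are activators, inhibitors, assembly factors and associated proteins, with 50 models. The names rest on the KEGG annotation of the table: the protein match of 102 of the 111 was a hypothetical protein, and 30 models, all structural, also had a proteasome term as GO cellular component. RNA was sequenced from fruit of Clementine mandarin (Citrus x clementina) and of kumquat (Citrus japonica per the sample labels, Fortunella japonica per the series title), with 3 libraries per species and no treatment. Each library pooled fruit of 5 stages. The early fruit, 15, 30 and 45 days old from flowering, had equal ages in both species, and the later fruit was 100 and 180 days old for clementine but 80 and 120 days old for kumquat. Species and the age of the later fruit therefore cannot be told apart in any comparison. The stage label of the kumquat libraries names Clementine mandarin, while their organism and cultivar labels name kumquat. Plants were 3 per the design text, which does not tie a library to a plant, so p-values measure the spread between these libraries, which may in part be technical.

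The proteasome is the protease that degrades proteins marked with ubiquitin in the cytosol and the nucleus of plant cells. Its core particle is a barrel of stacked rings of alpha subunits, which gate the entry, and beta subunits, some of which cut peptide bonds. A regulatory particle caps the barrel, where a ring of ATPases (the T subunits) unfolds substrates and the non-ATPase N subunits bind ubiquitin, remove it and hold the cap together. In plants this route also degrades many regulators of hormone and light responses.

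Levels are given in FPKM (fragment numbers divided by the length of the model and the size of the library), which can be set side by side between genes. FPKM summed to between 691560 and 707892 per library, total fragment counts are unknown, and the models are those of clementine. Models with a value above 0 numbered 26050 to 26285 in the clementine libraries and 25523 to 25807 in the kumquat libraries. Between libraries of 1 species, r of log2(FPKM + 1) over the tested models was 0.969 to 0.979, and between the species it was 0.810 to 0.816. Differences were fitted with limma on log2(FPKM + 1), as kumquat minus clementine, and calls were made where the p-value, adjusted by Benjamini-Hochberg over everything tested, was under 0.05. On this scale the change of a low model is understated.

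Most structural subunits were slightly lower in kumquat fruit. With the models of each subunit name summed, 20 of the 32 structural subunits fell, 2 rose and 10 were not called. Over all 3615 KEGG names tested in the same way, 26.4% were called lower and 37.6% higher. Among KEGG names with a summed mean of at least 50 FPKM these shares were 29.7% and 39.1%. The median log2 change of the 32 subunits was -0.17, beside 0.06 over all names. Of the 32 changes, 29 were below 0, beside 1570 of 3615 over all names. No structural subunit was called with a change of 2-fold, beside 3.07% of all names lower and 3.87% higher by that much. The libraries of the species did not overlap in 22 subunits, 21 of them lower and 1 higher in kumquat, beside non-overlap in 68.6% of all names. Of the 20 calls of a fall, 14 stood under all 13 alternative settings that were tried.

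The FPKM of the structural subunits summed to 4356, 4430 and 4386 in the clementine libraries and to 3662, 3816 and 3861 in the kumquat libraries. All 3 kumquat sums lay below all 3 clementine sums, and the kumquat mean of 3780 ± 104 was 0.861 times the clementine mean of 4390 ± 37.3 (SD, n = 3). As a share of the FPKM of a library, the subunits made up 0.629% in clementine and 0.539% in kumquat. The mean sum was lower in kumquat by 14.3% for the alpha ring, 16.9% for the beta ring, 13.8% for the ATPases and 10.3% for the non-ATPases. The ATPase sum went from 1181 to 1017 FPKM. Most of that drop lay in a single T2 model, Ciclev10023167m, which went from 160.1 to 38.5 FPKM. In whole-fruit RNA, fewer cells of a type and less RNA per cell cannot be told apart. As the models are those of clementine, a lower level in kumquat and a poorer match of its reads cannot be told apart either. This limit holds for each fall described here.

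**Figure D1:**
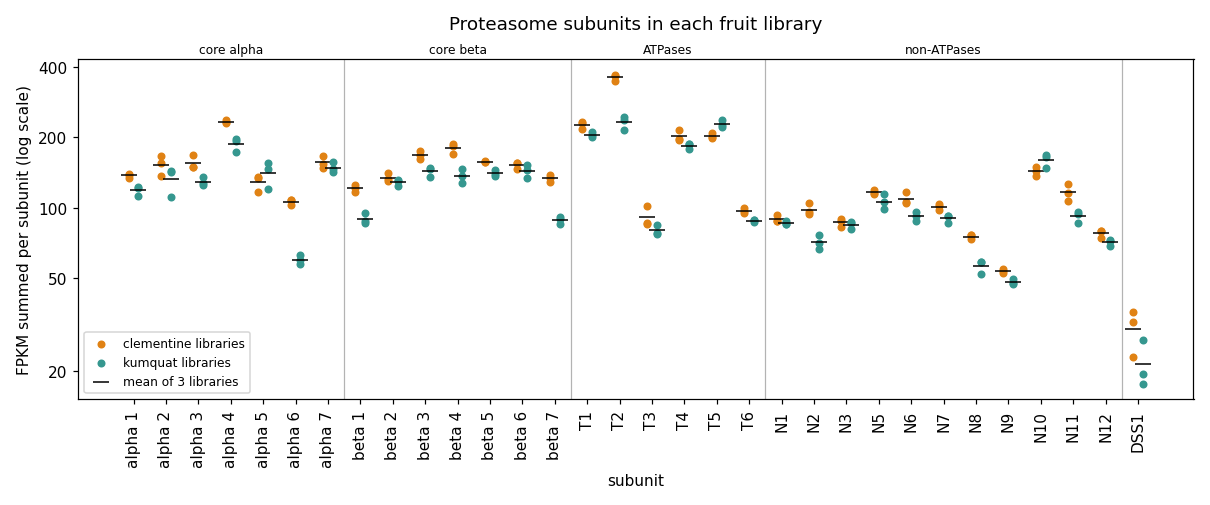
FPKM summed over the models of each of 32 structural proteasome subunits (vertical axis, log scale) in 3 clementine and 3 kumquat libraries, with points for libraries and lines for means. Subunit T2 is the highest in clementine at a mean of 362 FPKM, DSS1 is the lowest in both species, and most kumquat points lie below the clementine points of the same subunit.

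Subunits of 1 complex were not at 1 level. Across the 32 summed subunits of a library the coefficient of variation was 42.3% to 46.4%, and the highest subunit was 9.02 to 15.2 times the lowest. The lowest was DSS1, a very small subunit of the cap, in every library. By species mean it was at 30.3 FPKM in clementine and 21.4 in kumquat. N9 was the next lowest, at 53.4 and 48.1 FPKM, so the size of that ratio rests in part on DSS1 alone. The highest was the ATPase T2 in 5 libraries, and T5 in kumquat replicate 1. The order was shared between the species: over the 32 subunits, the log2 mean levels correlated at r = 0.95 and rho = 0.936, a description across genes that share libraries and are not replicates.

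Of the 7 alpha subunits, 4 fell and 3 were not called. Alpha 6 had the largest fall of all structural subunits. Its summed FPKM was 102, 108 and 108 in clementine and 57.3, 62.6 and 59.7 in kumquat, so that the groups lay far apart. The log2 change was -0.81 (SE 0.053, adjusted p = 1.2e-06). Alpha 4 was the most abundant alpha subunit and went from 233 ± 3.39 to 188 ± 12.2 FPKM (SD, n = 3), a log2 change of -0.32. Its leading model Ciclev10026339m went from 177 to 146 FPKM, a change of -0.28 that was not called with no trend in the prior variance. Alpha 1 and alpha 3 fell by 0.21 and 0.26 on the log2 scale. Alpha 2 had a change of the same size, -0.21, but its libraries overlapped and the 95% interval ran from -0.45 to 0.03. Alpha 7 had a change of -0.07 (interval -0.20 to 0.06) and alpha 5 of 0.12 (interval -0.09 to 0.33).

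All 7 beta subunits had changes below 0, and 5 of them fell. The catalytic subunits did not move alike. Beta 1, which carries the caspase-like activity, has 1 model, with 125, 117 and 121 FPKM in clementine and 88.0, 85.7 and 94.8 in kumquat. No kumquat library reached the lowest clementine library, and the log2 change was -0.43 (SE 0.054, adjusted p = 9.31e-05). Beta 5, which carries the chymotrypsin-like activity, went from 157 ± 1.01 to 139.9 ± 4.35 FPKM (SD, n = 3), a change of -0.17 with adjusted p = 0.00723. Beta 2, which carries the trypsin-like activity, had 134 ± 5.39 and 128 ± 4.02 FPKM (SD, n = 3) and overlapping libraries, and its change of -0.06 had an interval of -0.17 to 0.05. Its leading model Ciclev10016241m was at 128 and 124 FPKM in the species means, and its change of -0.04 became 0.002 without clementine replicate 1. The second beta 2 model, Ciclev10032380m, was at 5.90 and 4.17 FPKM with a change of -0.40 and was not called (adjusted p = 0.104).

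Among the beta subunits without a catalytic site of their own, beta 7 and beta 4 fell most. Beta 7 read 129, 134 and 138 FPKM in clementine and 85.2, 91.5 and 89.5 in kumquat. The log2 change was -0.59 (SE 0.05, adjusted p = 7.33e-06). Beta 4, the most abundant beta subunit with a single model, Ciclev10005907m, went from 179.7 ± 9.36 to 137 ± 9.72 FPKM (SD, n = 3), a change of -0.39. Beta 3 fell by 0.24 on the log2 scale. Beta 6 was at 152 and 143 FPKM in the species means and was not called (interval of the change -0.22 to 0.04).

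**Figure D2:**
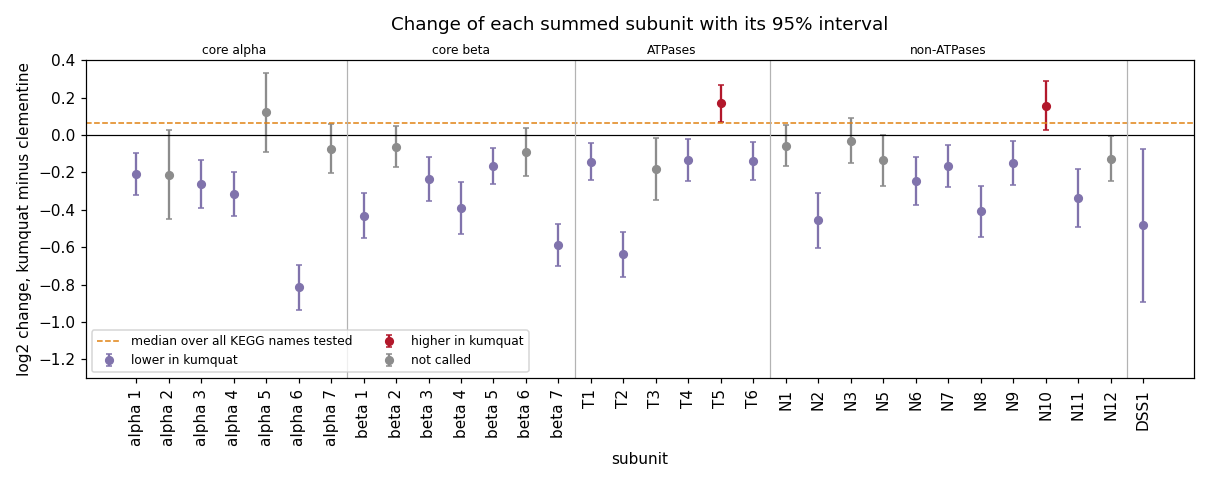
Log2 change of each summed subunit (kumquat minus clementine, vertical axis) with its 95% interval from limma, coloured by call. Of the 32 subunits, 20 are called lower and T5 and N10 higher, and the dashed line is the median over all KEGG names, 0.06.

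Of the 6 ATPases of the cap, T1, T2, T4 and T6 fell, T5 rose and T3 was not called. T2 was the most abundant subunit of clementine, with 349.6, 370.4 and 366 FPKM, and had 216, 238 and 245 FPKM in kumquat. The species were far apart, at a log2 change of -0.64 (SE 0.053, adjusted p = 6.97e-06). T5 was at 199, 199.5 and 209 FPKM in clementine and 222, 236 and 226 in kumquat. All kumquat libraries lay above all clementine libraries, and the log2 change of 0.17 (SE 0.044, adjusted p = 0.00704) was called under all 13 alternative settings. T1, T4 and T6 fell by 0.14, 0.13 and 0.14 on the log2 scale, and T3 had a change of -0.18 with adjusted p = 0.0559. Without kumquat replicate 2 none of these 3 was called. T1 also lost its call without clementine replicate 2 or 3, T4 without clementine replicate 1 or 2 or kumquat replicate 3, and T6 without clementine replicate 2 or kumquat replicate 3, and T4 and T6 lost it with scaling on models of at least 50 FPKM and T4 with no trend. The highest adjusted p over all settings was 0.0827 for T1, 0.13 for T4 and 0.102 for T6. Of the T4 models, Ciclev10016364m, at 1.07 and 0.333 FPKM, matched another protein, a gamma-soluble NSF attachment protein.

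Of the 11 non-ATPase N subunits, 6 fell, N10 rose and 4 were not called. N2, a large scaffold of the cap, read 105, 95.7 and 93.6 FPKM in clementine and 76.3, 70.5 and 66.6 in kumquat, with no overlap. Its log2 change was -0.46 (SE 0.066, adjusted p = 0.000243). N11, the subunit that cuts ubiquitin off substrates, went from 116 ± 9.57 to 91.6 ± 5.34 FPKM (SD, n = 3), a change of -0.34. N8, its partner in the lid, went from 75.1 ± 1.61 to 56.5 ± 3.88 FPKM (SD, n = 3), a change of -0.41. Lid subunits N6, N7 and N9 fell by 0.25, 0.16 and 0.15 on the log2 scale. N7 lost its call without clementine replicate 1 or 2 or kumquat replicate 2 and N9 without any 1 of the 6 libraries and with scaling on models of at least 50 FPKM, with adjusted p of up to 0.0748 and 0.0867 over all settings. N1, the other large scaffold, and N3, N5 and N12 of the lid had changes of -0.06, -0.03, -0.14 and -0.13 with adjusted p of 0.327, 0.631, 0.0724 and 0.0649. The leading N5 model, Ciclev10025611m, was the most abundant model of an N subunit, at 116 and 106 FPKM.

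N10, a receptor for ubiquitin chains, was at 137, 149 and 143 FPKM in clementine and 147, 167 and 164 in kumquat. The lowest kumquat library lay within the clementine range. Its log2 change of 0.16 passed the test with adjusted p = 0.0399, and the call was lost with median scaling, with no trend in the prior variance and without clementine replicate 1 or 3 or kumquat replicate 2 or 3. DSS1 read 22.9, 35.7 and 32.3 FPKM in clementine and 17.6, 19.4 and 27.1 in kumquat, which overlap. Its change of -0.48 had the widest error of the 32 (SE 0.182, adjusted p = 0.0415), and the call was lost with no trend and without clementine replicate 2 or 3 or kumquat replicate 1 or 2.

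Below the level of summed subunits, models of the same subunit did not always move together. Of the 111 models, 88 passed the filter of at least 1 FPKM in at least 3 libraries. The highest mean of the other 23 was 1.24 FPKM, none was at 0 in all 6 libraries, and 11 models were listed at 0 in all libraries of 1 species. Among the 88, 18 were called higher and 35 lower, beside 29.9% higher and 27.1% lower over all 22050 models tested. In each direction 7 members had a change of at least 2-fold, beside 12.4% and 12.1% of all models. Of the 42 members with a mean of at least 50 FPKM, 3 were higher and 22 lower, beside 34.7% and 35.4% of all models at that level. Of the 88, 3 had 1 FPKM or more only in libraries of 1 species and all 3 were called, as such a model has to differ. Of the 111 models, 52 shared their protein match with another member, so that reads may have been split between them.

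The leading model of each subunit, the one with the highest mean, was lower in 16 of 32 cases and higher in 1. Among all models with a mean of at least 50 FPKM, 35.4% were lower and 34.7% higher. Of the 32 changes, 31 were below 0, beside 1388 of 2760 for all models at that level. Without clementine replicate 2 the number lower was 10 of 32, beside 31.9% of those models in the same fit, and with no trend in the prior variance it was 9 of 32, beside 30.8%. In these 2 fits the count of leading models called lower was near that of other abundant models. The large fall of T2 was in 1 of its 2 models. Ciclev10023167m was at 154, 163 and 163 FPKM in clementine and 35.2, 39.9 and 40.4 in kumquat, a log2 change of -2.03 (SE 0.067, adjusted p = 6e-07). The other T2 model, Ciclev10020143m, the most abundant ATPase model of all, had 202 ± 6.25 and 194 ± 12.4 FPKM (SD, n = 3) with overlapping libraries, and its interval was -0.20 to 0.09.

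T5 and N10 each combined a rising and a falling model. In T5, Ciclev10001272m rose from 109.8 ± 2.39 to 157 ± 6.20 FPKM (SD, n = 3), a log2 change of 0.51 with adjusted p = 0.000119. The second T5 model, Ciclev10001269m, fell from 92.8 ± 4.30 to 71.3 ± 1.23 FPKM (SD, n = 3), a change of -0.37 with adjusted p = 0.000798. In the clementine libraries the first read 107 to 112 FPKM and the second 88.9 to 97.4, and in the kumquat libraries the first read 152 to 164 and the second 70.1 to 72.6. In N10, Ciclev10028565m rose from 52.1 ± 1.33 to 81.2 ± 7.20 FPKM (SD, n = 3), a change of 0.63, and Ciclev10025759m fell from 90.1 ± 4.70 to 77.3 ± 3.94 FPKM (SD, n = 3), a change of -0.22. The fall of Ciclev10025759m was not called without clementine replicate 2 or 3. The last N10 model, Ciclev10028613m, was at 0.587 and 0.983 FPKM in the species means.

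**Figure D3:**
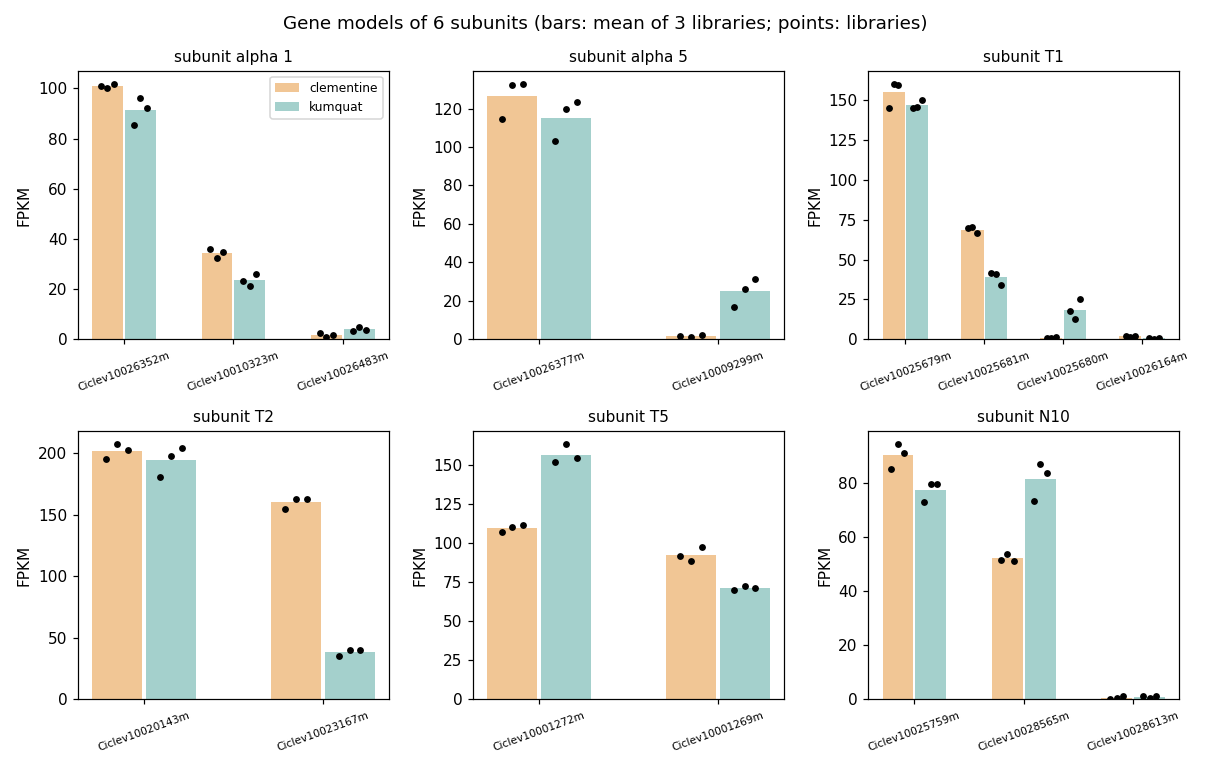
FPKM of every model of 6 subunits whose models differ in the direction or the size of their change. Bars show the mean of 3 libraries and points the libraries, each panel on its own axis from 0. One T2 model falls from 160.1 to 38.5 FPKM while the other is at 202 and 194 FPKM, and in T5 and N10 1 model is higher and another lower in kumquat.

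In T1, 2 models with the same protein match and the same RefSeq gene moved against each other. Ciclev10025681m read 69.5, 70.3 and 66.4 FPKM in clementine and 41.6, 41.1 and 34.1 in kumquat, a log2 change of -0.81. Ciclev10025680m read 0.55, 1.04 and 1.20 FPKM in clementine and 17.9, 12.7 and 25.0 in kumquat, a change of 3.31 (SE 0.259, adjusted p = 3.43e-05). Summed over their shared match they went from 69.7 ± 1.89 to 57.4 ± 3.21 FPKM (SD, n = 3), a change of -0.28 with adjusted p = 0.0038, so the models apart are uncertain and the sum is the firmer value. Over all protein matches summed in this way, 34.5% were called higher and 30.0% lower. The leading T1 model, Ciclev10025679m, was at 155 and 147 FPKM and was not called. The fourth, Ciclev10026164m, was at 1.97 and 0.64 FPKM, and its call of a fall was lost without any 1 of 5 libraries.

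Alpha 5 and alpha 1 each had a rising model at a low level. In alpha 5, Ciclev10009299m read 1.52, 1.32 and 2.07 FPKM in clementine and 17.0, 26.3 and 31.2 in kumquat, a log2 change of 3.26 (SE 0.232, adjusted p = 2.08e-05). The subunit as a whole was at 128 and 140.2 FPKM in the species means, and the leading model Ciclev10026377m was at 127 and 115 FPKM, with a change of -0.14 that was not called. In alpha 1, Ciclev10026352m was at 101 and 91.3 FPKM and not called, Ciclev10010323m fell from 34.4 to 23.6 FPKM and Ciclev10026483m rose from 1.70 to 3.99 FPKM. The rise of Ciclev10026483m was not called without clementine replicate 2 or 3 or kumquat replicate 2. In alpha 7, Ciclev10012811m rose from 0.317 to 1.45 FPKM (limma, adjusted p = 0.0156). It shares its protein match with the leading alpha 7 model, which was at 156 and 147 FPKM and not called.

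Among the factors that assemble the particle, the maturation protein, which helps the beta subunits mature, had a single model at 138, 144 and 136 FPKM in clementine and 121, 124 and 128 in kumquat. The groups did not overlap, and the log2 change of -0.17 (adjusted p = 0.0117) was about that of the median subunit. It was not called without clementine replicate 2 (adjusted p = 0.0589). Assembly chaperone 4, which serves the alpha ring, fell from 38.8 ± 8.01 to 27.9 ± 3.22 FPKM (SD, n = 3), a change of -0.45 that was not called without kumquat replicate 3 (adjusted p = 0.0601). Assembly chaperone 2 was at 33.1 and 34.6 FPKM and was not called. Assembly chaperone 3 was at 4.35 and 1.94 FPKM with adjusted p = 0.0574. Non-ATPase regulatory subunits 5, 9 and 10 are known from mammals as chaperones of the ATPase ring. Subunit 5 rose by 0.20 on the log2 scale and subunit 9 by 0.49, from 16.0 to 22.8 FPKM. The call of subunit 5 was lost without clementine replicate 3 or kumquat replicate 2 (adjusted p of up to 0.07), and that of subunit 9 stood under all 13 settings. Subunit 10, an ankyrin-repeat name with 11 models, summed to 179 and 168 FPKM and was not called (adjusted p = 0.0735). Of its 9 tested models, 2 rose, led by Ciclev10028402m with a change of 0.98 from 8.75 to 18.3 FPKM, and 2 fell, among them Ciclev10020753m from 37.7 to 29.8 FPKM.

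Of the proteins that bind the finished particle, ECM29, known from yeast for holding the core and the cap together, rose from 30.4 ± 2.89 to 35.6 ± 1.63 FPKM (SD, n = 3), a log2 change of 0.22 with adjusted p = 0.0323. The call was lost with median scaling and without clementine replicate 2 or 3 or kumquat replicate 1 or 2, with adjusted p of up to 0.119. The ATPase 3-interacting protein, which is known for a role in meiotic recombination and not in the protease, was low at 4.68 and 2.29 FPKM and fell. Activator subunit 4 is the name of a large activator that can cap the core in place of the ATPase cap. Its 10 models summed to 669.9, 586 and 579.9 FPKM in clementine and 384, 337 and 324 in kumquat. This was the highest level of any proteasome name, and the log2 change was -0.81 (SE 0.074, adjusted p = 1.22e-05).

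Of these 10 models, 9 carry a second KEGG name, epidermal growth factor receptor substrate 15, so which protein they encode is uncertain. The 1 model without it, Ciclev10007234m, read 30.6, 27.1 and 27.7 FPKM in clementine and 28.4, 26.1 and 24.4 in kumquat. These ranges overlap, the change was -0.11 and it was not called (interval -0.31 to 0.09). Among the models with both names, Ciclev10030930m fell from 370.4 ± 55.2 to 178 ± 32.9 FPKM (SD, n = 3) and Ciclev10008742m rose from 60.8 ± 1.96 to 133 ± 4.76 (SD, n = 3), changes of -1.06 and 1.12. The largest fall of any member was in Ciclev10029006m, with 104, 114 and 112 FPKM in clementine and 1.54, 0.68 and 0.90 in kumquat, a change of -5.79 (SE 0.155, adjusted p = 2.48e-07). Ciclev10030447m and Ciclev10029064m, which share 1 match, together went from 29.5 to 3.21 FPKM, a change of -2.86. In all, 6 of the 9 tested models of this name fell and 1 rose.

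**Figure D4:**
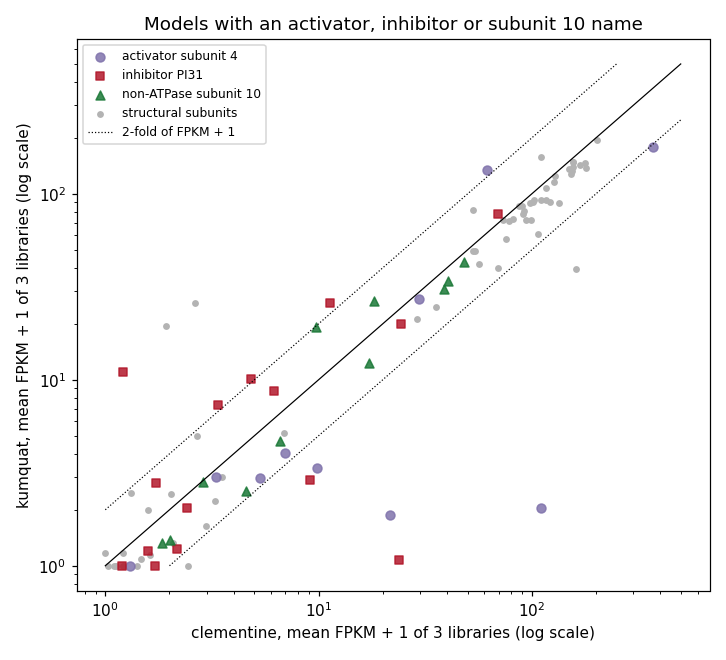
Mean FPKM + 1 of each member in clementine (horizontal) and kumquat (vertical), both on log axes, with the solid line at equal levels and dotted lines at 2-fold. Most structural models lie close to the line, and models named activator subunit 4 or inhibitor PI31 lie farthest from it, among them Ciclev10029006m at 109.9 and 1.04 FPKM.

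The inhibitor PI31, known from mammals as a protein that binds the core and inhibits it in the test tube, had 15 models, with calls in both directions. Summed, it was at 149 ± 8.12 and 159 ± 2.82 FPKM (SD, n = 3) and was not called (interval of the change -0.02 to 0.21). Of 11 tested models, 6 rose and 2 fell. The most abundant, Ciclev10021036m, was at 68.2 and 76.6 FPKM with adjusted p = 0.0785. Ciclev10012365m read 23.1, 22.8 and 22.6 FPKM in clementine, and in kumquat it was at 0.23 in 1 library and listed at 0 in the others. Ciclev10029474m had the opposite pattern, with 0, 0.44 and 0.19 FPKM in clementine and 8.49, 10.1 and 11.4 in kumquat. The others called at least 2-fold higher in kumquat were Ciclev10013011m, from 10.3 to 25.0 FPKM, Ciclev10033996m, from 3.81 to 9.11 FPKM, and Ciclev10021297m, from 2.37 to 6.35 FPKM. The size of a change against such low values depends on the pseudocount. Ciclev10013011m is 1 of 6 models that share 1 match, and summed these rose from 26.4 ± 0.306 to 37.4 ± 2.59 FPKM (SD, n = 3), a change of 0.48, although another of them, Ciclev10013008m, fell from 8.13 to 1.89 FPKM.

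The structural models were set beside the genes that feed and surround the proteasome. Of 49 tested structural models, 22 fell and 6 rose, with a median log2 change of -0.17, beside 0.04 over all models. Shares over all models tested were 27.1% lower and 29.9% higher. Ubiquitin genes had 21 lower (29.2%) and 25 higher (34.7%) of 72, with a median of 0.09. The most abundant ubiquitin model called, Ciclev10012654m, rose from 1223 to 1528 FPKM. All 4 models of the E1 enzymes, which activate ubiquitin, were without a limma call, adjusted or at an unadjusted p under 0.05 (0 higher, 0 lower).

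Of 84 models of E2 enzymes, which carry ubiquitin, 22 rose (26.2%) and 18 fell (21.4%), beside 29.9% and 27.1% of all models tested. Ciclev10013033m rose from 795 to 1299 FPKM and Ciclev10013868m fell from 754.5 to 330 FPKM. Cullins and the core of SCF ligases had 9 higher and 11 lower of 35, and named E3 ligases, which choose substrates, had 87 higher and 67 lower of 328. Deubiquitinases had 20 higher and 12 lower of 52, among them Ciclev10015338m, which fell from 205 to 82.3 FPKM. Shuttle factors and CDC48, which bring ubiquitinated proteins to the particle, had 8 higher and 4 lower of 28. The shares called higher and lower were 25.7% and 31.4% for cullins and 26.5% and 20.4% for E3. They were 38.5% and 23.1% for deubiquitinases and 28.6% and 14.3% for shuttle factors. Medians of these lists were 0.13 for E2, -0.01 for cullins, 0.05 for E3, 0.14 for deubiquitinases and 0.09 for shuttle factors.

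Of all models tested, 29.9% were called higher and 27.1% lower. The COP9 signalosome, a complex built from subunits related to the proteasome lid, had 4 higher (17.4%) and 2 lower (8.7%) of 23. Its median was 0.14. With a filter of 5 FPKM it had 2 higher and 3 lower of 17, without clementine replicate 2 it had 1 and 2, without kumquat replicate 2 it had 2 and 4, and without kumquat replicate 3 it had 2 of each, so no direction is read from it. Autophagy genes, the other main route of protein breakdown, had 6 higher (25.0%) and 2 lower (8.33%) of 24, with a median of 0.23. Models with a large or small subunit ribosomal protein name, used for comparison, had 116 higher (24.7%) and 144 lower (30.7%) of 469. Their median was 0.01. The list went by name alone and did not set cytosolic ribosomes apart from those of organelles. Its most abundant model called lower, Ciclev10026223m, has DNA-directed RNA polymerase III subunit RPC7 as first KEGG name. The difference between the structural models and any of these lists was not tested.

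**Figure D5:**
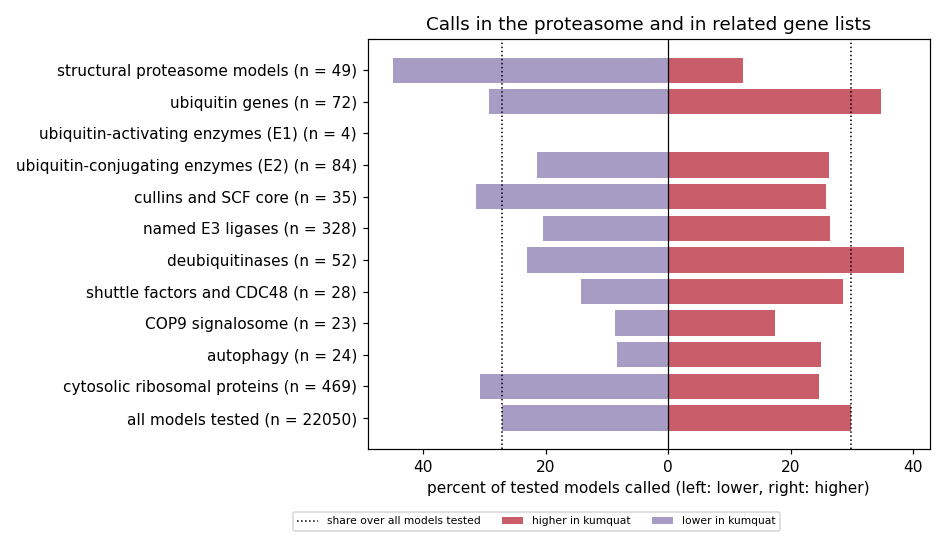
Percent of tested models called lower (left) and higher (right) in kumquat for structural proteasome models and related lists, with n tested, and dotted lines at the shares over all models tested. The row labelled cytosolic ribosomal proteins was picked by ribosomal protein name alone. The structural models have 44.9% lower and 12.2% higher, beside 27.1% and 29.9% over all models.

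Markers of tissues that pooled fruit can hold in different amounts were also compared. Over all models tested, 29.9% were called higher and 27.1% lower. Of 56 tested green tissue models (light-harvesting and photosystem proteins), 29 fell and 6 rose, and their FPKM summed to 11472 to 12583 in clementine and 9765 to 10904 in kumquat. The names searched as seed markers gave 3 models, of which 2 are late embryogenesis abundant protein Lea5 and 1 is vicilin-like. All 3 rose, and summed to 644 to 808 FPKM in clementine and 2468 to 2971 in kumquat. Most of this was the Lea5 model Ciclev10006308m, at 605 to 769 FPKM in clementine and 2349 to 2851 in kumquat. No other seed storage protein and no oleosin was found by name, so the amount of seed is not read from these values. Of 10 tested flesh and peel models (phytoene and chalcone synthases), 3 rose and 4 fell, with sums of 3165 to 3264 and 1895 to 2053 FPKM. Most of these sums was a single chalcone synthase model, Ciclev10015535m, which fell from 3012 to 1829 FPKM. The most abundant model called higher, the phytoene synthase Ciclev10015582m, rose from 36.5 to 48.2 FPKM. The 1 oil gland model had a sum of 0 in each clementine library and 0.65 to 1.10 FPKM in kumquat and was not tested. None of the other marker models was at 0 in all 6 libraries. The part of these tissues in the lower proteasome levels was not tested.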

How the data were processed

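The deposited table gives FPKM per gene model with 2 decimals, made by the authors per the file headers. Per the submitters' processing notes, the authors used HISAT, StringTie and DESeq2, with no version or role stated. For the genome build and the annotation, the entry is "not given in the sources used here", and no coordinates or sequences are printed. FPKM hold no counts, so depth is unknown and no counting intervals can be given. The steps between low values put the depth of the libraries at 0.871 to 1.00 times that of clementine replicate 2, lowest in kumquat. This estimate is rough. In kumquat replicate 3 the most common low value held 64 of 1456 models and the next one 55, and in kumquat replicate 1 these were 51 of 1296 and 26. Models reaching 1 FPKM in 3 or more libraries were fitted with limma 3.58.1 (R 4.3.3) on log2(FPKM + 1) (empirical Bayes with trend, no covariate, two-sided, Benjamini-Hochberg over all tested models), and again after summing all models of the table by first KEGG name or protein match. The script was tested on simulated data. Members and gene lists were chosen with earlier results of these data known. Lists were text patterns in KEGG names and protein matches, with the proteasome models left out. Of the 111 members, 68 matched 54 RefSeq genes through their accessions (assembly Citrus_clementina_v1.0). Another 35 models with proteasome only in a later KEGG name were not members.

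Named models were taken from the most abundant of each subunit class, every called member with at least a 2-fold change, all tested models of a subunit with calls in both directions, the catalytic beta subunits, the 3 largest called rises and falls, and the most abundant called model in each direction of each list. Other models, and summed subunits, were named after their values were seen. Alternatives were a pseudocount of 0.1, a filter of 5 FPKM, no filter, scaling to the median log ratio over models of at least 1 FPKM or at least 50 FPKM, no trend, the replicate number as a term, and each library left out. The scaling on models of at least 50 FPKM and the leading models were added after seeing the data.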

Additional observations from a re-analysis of the deposited data

How the results depend on the processing

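All 20 called falls and both called rises of structural subunits kept their direction under the 13 settings run, and 14 of the falls were called under each. Without 1 library, 14 to 20 of the 32 summed subunits were lower and 1 to 3 higher, the counts of all proteasome names were 19 to 25 lower and 2 to 5 higher (2 without clementine replicate 3 or kumquat replicate 2), those of models 25 to 35 lower and 13 to 16 higher, and those of leading models 10 to 15 lower (10 without clementine replicate 2). The FPKM sums over all members include activator subunit 4, which went from 612 to 348 FPKM and most of whose models are of uncertain identity. The structural subunits alone had a ratio of 0.861. Over all members the ratio of FPKM sums was 0.842, and 0.838 to 0.849 without 1 library. With median scaling it was 0.814, 3 names were higher and 1 structural subunit was higher. With no trend 9 leading models were lower and 1 structural subunit was higher. With the replicate block 25 subunits were lower and 3 higher, and 44 models lower and 20 higher. Same-numbered libraries deviated together only weakly (r of 0.119, 0.0424 and 0.0657), each library best with its own number, so the numbers were not taken as pairs. Cullins went from 9 higher to 5 with a filter of 5 FPKM and without clementine replicate 3 or kumquat replicate 2. Autophagy falls, 2 in all, went to 0 with no trend and without clementine replicate 1 or kumquat replicate 3 (1 under 4 other settings), and its rises from 6 to 3 without kumquat replicate 1. Falls of flesh and peel models went from 4 to 1 without clementine replicate 2 or 3 and to 2 without clementine replicate 1. With no filter, all 111 members had 18 higher and 37 lower and a median log2 change of -0.17.

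Changes near 0 turned sign in 4 named models that were not called. Ciclev10021630m (-0.008) was at 0.002 with scaling on models of at least 50 FPKM and at 0.102, 0.012 and 0.009 without clementine replicate 1, kumquat replicate 1 and kumquat replicate 2 (lowest with a library left out -0.123). Ciclev10012970m (-0.129) was at 0.178 with a pseudocount of 0.1 and at 0.075, 0.201 and 0.193 without clementine replicate 1, clementine replicate 3 and kumquat replicate 2 (lowest -0.661). Ciclev10016241m was at 0.002 without clementine replicate 1 (lowest -0.071) and Ciclev10019363m at 0.006 without kumquat replicate 2 (lowest -0.331). The cause was not tested. Of the other values for named models under the alternatives, 596 kept direction and call, 15 gained a call and 22 lost it. Total depth is unknown, and with 3 libraries per species an effect under about the errors given cannot be told from 0.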
